A study of Mus musculus with 10 samples.

Results

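MAF9 cells are mouse bone marrow cells, on a C57BL/6 background, that were transduced with the leukaemia fusion gene MLL-AF9 and grown in medium with serum and interleukin-3. The comparison described here set the cells exposed to a DOT1L inhibitor (EPZ, EPZ5676 in the paper) or to a MENIN inhibitor (MI, written MI-2 in the treatment label and MI-2-2 in the paper) together against the cells exposed to MM-401, written MM401 in the labels, which blocks the contact between MLL1 and WDR5. Members were the 2 EPZ and the 2 MI libraries on one side and the 2 MM401 libraries on the other, 6 of the 10 RNA sequencing libraries of the series. The DMSO libraries entered no ratio, and 2 libraries of the BET inhibitor iBET were likewise left aside. All 6 libraries carried the same fusion gene and had been treated for 4 days at a dose chosen by growth inhibition, of which the sources used here do not give the concentration. The series' design text calls the libraries of an inhibitor biological duplicates and does not say whether they came from separate cultures or separate transductions, so that p-values measure the spread between these samples. All results rest on a single kind of transduced cell kept in culture.

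MLL1 is a histone methyltransferase whose activity depends on WDR5 and its other core partners. The MLL-AF9 fusion protein keeps the amino terminus of MLL1, through which MENIN binds, and replaces the catalytic end with a part of AF9, which brings in DOT1L and elongation factors. Fusion proteins of this kind hold myeloid progenitors in an immature state in which HOXA and MEIS1 genes are active. Progenitors that mature into neutrophils make primary granule proteases first and specific and gelatinase granule proteins later, while monocytes and macrophages turn on other receptors and enzymes.

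The deposited table gives raw read counts for 24015 genes, of which 17077 had a read in the 6 libraries and 12756 passed the filter on low counts and were tested. The 6 libraries held between 21249483 and 29473127 counted reads. Levels are given below as TMM-normalized CPM, that is, read counts brought to a common library size by a scaling that allows for a few very abundant genes, and they are compared between samples and not between genes. In these units 1 read was between 0.0349 and 0.0478 CPM. Pearson's r of log2 CPM across the genes tested was between 0.982 and 0.991 for the 2 libraries of an inhibitor, between 0.969 and 0.984 for an EPZ with an MI library and between 0.915 and 0.927 for an MM401 library with an EPZ or MI library. These values describe the libraries, since genes are not independent replicates. The libraries of an inhibitor differed from each other by more than sampling noise, so that none was a second copy of another. Of the 4 libraries left aside as DMSO or iBET, DMSO 2 stood apart with 3630 reads on 4 Y-linked genes, against 0 to 2 in each of the other 9, and its values are quoted below only beside those of DMSO 1.

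Which genes differed between cells with EPZ or MI and cells with MM401 was asked across all 12756 genes. With edgeR's quasi-likelihood test and Benjamini-Hochberg adjustment, which gave all adjusted p-values below, 6812 genes passed 0.05 (53.4%). Of these, 3268 (25.6%) were higher in EPZ and MI than in MM401 and 3544 (27.8%) were lower. Over 2-fold, 1832 genes (14.4%) were higher and 1027 (8.05%) lower, so that genes higher in EPZ and MI outnumbered the others among the larger differences. For 4040 genes (31.7%) all 4 EPZ and MI libraries lay above both MM401 libraries, and for 4401 (34.5%) all 4 lay below both. The median log2 fold change over all genes tested was -0.0054, with quartiles of -0.47 and 0.57. The count of called genes rested on both MM401 libraries: it was 4088 without MM401 1 and 3770 without MM401 2, where the remaining MM401 library was assumed to vary like the others. With scaling by total counts the median moved to -0.121, and 39.5% of the called genes were higher against 48% with TMM.

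**Figure D1:**
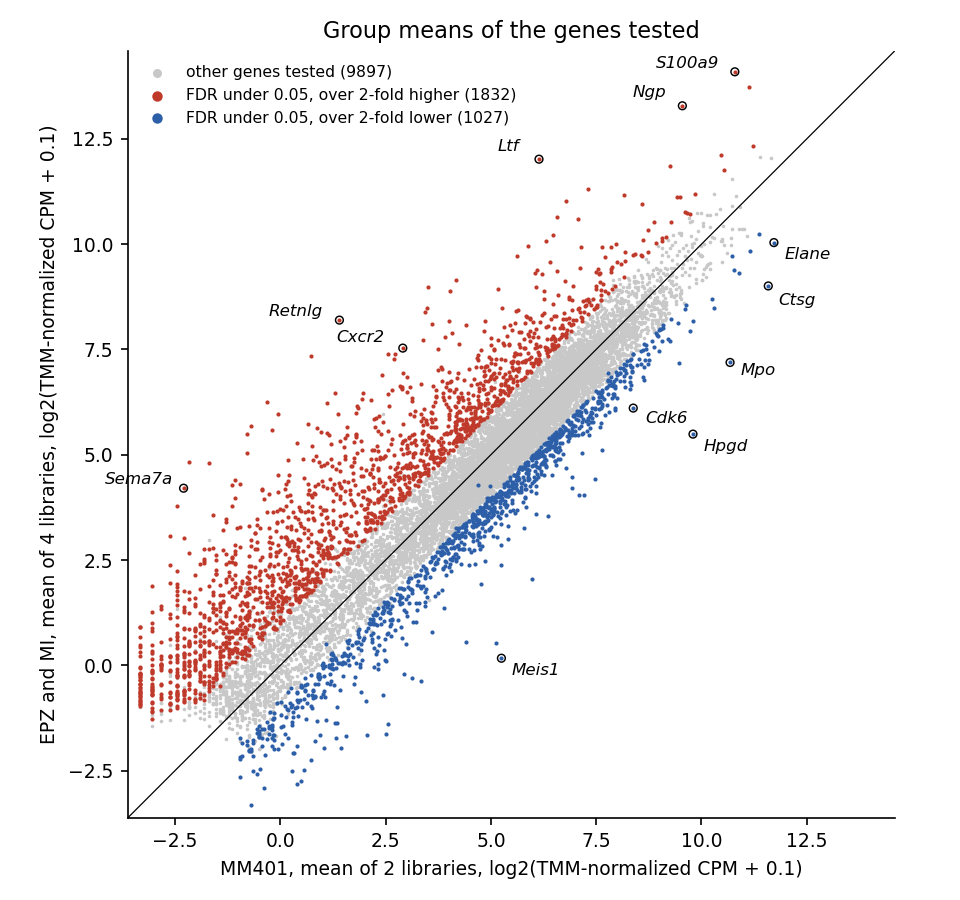
Mean level of each of the 12756 genes tested in the 2 MM401 libraries (x axis) and in the 4 EPZ and MI libraries (y axis), as log2 of TMM-normalized CPM plus 0.1, with genes over 2-fold higher (1832) or lower (1027) at an adjusted p under 0.05 in red and blue, and the line of equal levels in black. Ltf, Retnlg, Cxcr2 and Sema7a lie far above the line over a wide range of levels, and Meis1, Mpo, Ctsg and Hpgd lie far below it.

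The largest differences in each direction were read from called genes with a mean of 5 CPM or more on the higher side whose 4 EPZ and MI libraries lay on one side of both MM401 libraries. Among the 10 with the highest log2 fold change were a membrane-bound semaphorin (Sema7a), a tight junction protein (Cldn1), an APC-binding Wnt pathway protein (Amer2), a calcium-activated potassium channel (Kcnn3) and a calcium channel subunit (Cacna1e). Amer2 was at 0.0827 and 0.165 CPM in the MM401 libraries, 20.9 and 60.3 with EPZ and 7.92 and 24.8 with MI (log2 fold change 7.64, SE 1.03, adjusted p = 0.00154). Its level was near 0 in both MM401 libraries and spread widely among the other 4. Sema7a was at 0.124 and 0.0827 CPM in the MM401 libraries, 16.95 and 19.7 with EPZ and 16.4 and 20.3 with MI (log2 fold change 7.4, SE 0.29, adjusted p = 6.81e-05), and its 4 EPZ and MI libraries lay close together. Cldn1 was at 0.0827 and 0.0827 CPM in the MM401 libraries, 11.9 and 27.1 with EPZ and 3.47 and 11.7 with MI (log2 fold change 7.12, SE 0.95, adjusted p = 0.00151). Kcnn3 had 10 reads with MM401, all of them in 1 of the 2 libraries, and was at 34.5 and 28.6 CPM with EPZ and 20.4 and 27.7 with MI (log2 fold change 7.02, SE 0.62, adjusted p = 0.000388). Its log2 fold change was 6.04 without MM401 2 and 12.36 without MM401 1, where the other MM401 library has no read and the value depends on the prior count. Crb3, a cell polarity protein, had 3 reads with MM401 and 781 with EPZ and MI, a ratio of 132 after scaling for depth (95% interval 45 to 641, which covers counting error only).

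The aspartic protease Asprv1 was at 1.74 and 1.37 CPM in the MM401 libraries, 163 and 216 with EPZ and 123 and 149 with MI (log2 fold change 6.69, SE 0.23, adjusted p = 5.89e-05), and the ubiquitin ligase Rnf144a at 0.91 and 0.496 CPM with MM401, 89.1 and 119 with EPZ and 38.5 and 57.2 with MI (log2 fold change 6.64, SE 0.35, adjusted p = 0.000108). For Cacna1e the levels were 0.579 and 0.455 CPM with MM401, 53.1 and 42.1 with EPZ and 59.3 and 49.98 with MI, which gave a log2 fold change of 6.61 (SE 0.23). In the DMSO libraries Cacna1e was at 0.669 and 0.282 CPM, levels of the same order as with MM401.

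Meis1, a homeobox gene and a classical target of MLL fusion proteins, had the largest fall. It was at 33.3 and 42.6 CPM in the MM401 libraries, 0.669 and 1.71 with EPZ and 0.636 and 1.08 with MI (log2 fold change -5.21, SE 0.33, adjusted p = 0.000157), while the DMSO libraries had 34.8 and 88.2 CPM and the iBET libraries 48.5 and 53.95. All 4 EPZ and MI libraries were thus below 2 CPM, and each of the other 6 was above 30. Hpgd, the enzyme that inactivates prostaglandins, was at 885 and 895 CPM in the MM401 libraries, 18.8 and 50.9 with EPZ and 38.5 and 71.1 with MI (log2 fold change -4.35, SE 0.40, adjusted p = 0.000435). The transcription factor gene Bhlha15, known from secretory cells, was at 25.1 and 17.3 CPM with MM401, 0.764 and 1.03 with EPZ and 2.25 and 1.47 with MI (log2 fold change -4.04, SE 0.26, adjusted p = 0.000157). Slc22a3, an organic cation transporter, was at 63.6 and 61.8 CPM with MM401, 1.24 and 0.584 with EPZ and 9.19 and 5.13 with MI (log2 fold change -4.62, SE 0.29, adjusted p = 0.000156). Its EPZ values were below those of MI in every library, but this difference did not pass the test of EPZ against MI. Ano4, a member of the anoctamin membrane protein family, was at 25.7 and 43.2 CPM with MM401, 0.573 and 1.26 with EPZ and 1.78 and 1.75 with MI (log2 fold change -4.75, SE 0.31, adjusted p = 0.00016). The remaining members of the 10 largest falls were Mpo, described below, 4933440M02Rik (-4.63), Glra3 (-4.47), Ptprt (-3.92) and Megf10 (-3.6). The log2 fold change of Glra3 was -5.3 without EPZ 2, and that of Ptprt -4.53 without EPZ 2 and -5.13 without MI 2.

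**Figure D2:**
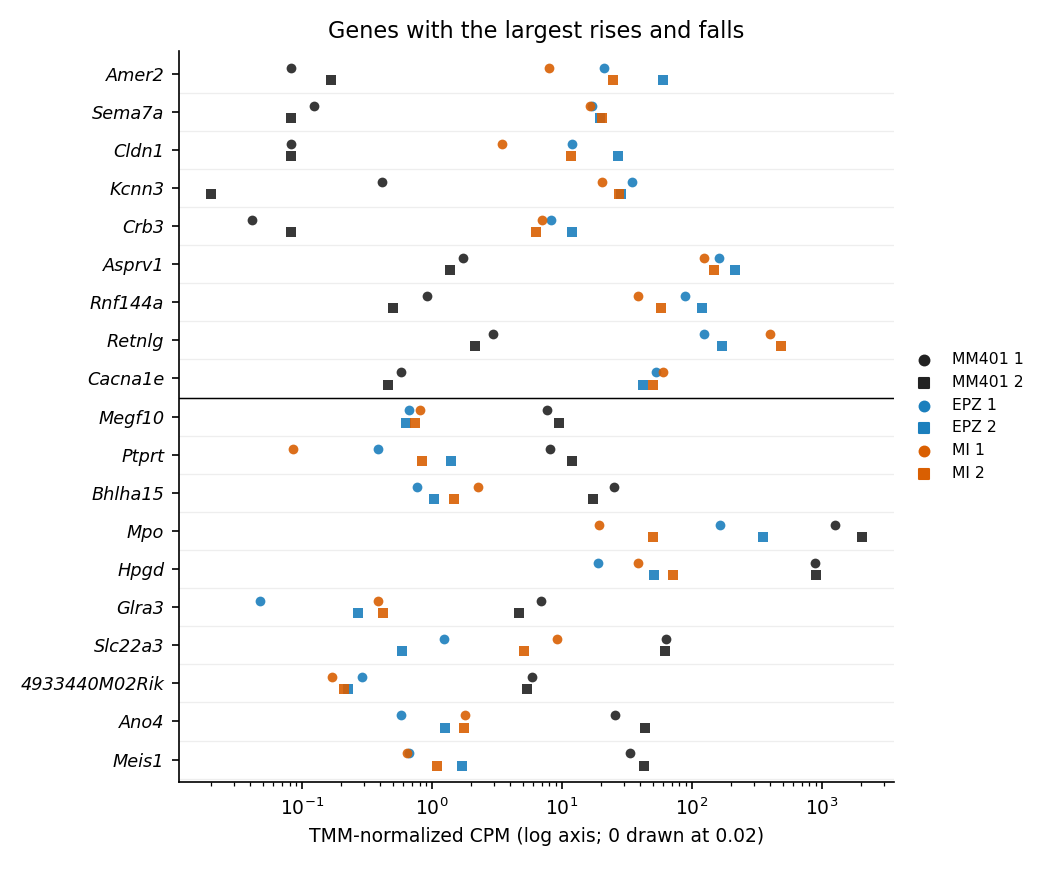
TMM-normalized CPM (log axis) in each of the 6 libraries for 9 of the 10 genes with the largest rise (above the line) and the 10 with the largest fall (below it), with circles for replicate 1, squares for replicate 2, black for MM401, blue for EPZ and orange for MI. In each gene shown the 4 coloured points lie on one side of both black points, and for Slc22a3, Mpo and Retnlg, among others, the EPZ and MI points are also set apart from each other. For Slc22a3 and Mpo that difference did not pass the test of EPZ against MI.

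Genes of the specific and gelatinase granules of neutrophils were higher without exception in the joint comparison. All 24 members of the list were tested, and 24 of 24 were higher in EPZ and MI by over 2-fold (14.4% of all genes tested), with a median log2 fold change of 3.91 against -0.0054 over all genes and a range from 1.25 (Hp) to 6.64 (Retnlg). For 24 of 24 members the 4 EPZ and MI libraries lay above both MM401 libraries. With EPZ alone against MM401 24 members passed as higher, and with MI alone 23. Not all members passed without MM401 1 or without MM401 2, at median log2 fold changes of 3.79 and 4.08. Since RNA was taken from whole cultures, more cells of a type and more RNA per cell cannot be told apart. Retnlg, a resistin-like secreted protein of neutrophils, was at 2.94 and 2.15 CPM in the MM401 libraries, 123 and 169 with EPZ and 399.9 and 480.3 with MI (log2 fold change 6.64, SE 0.25, adjusted p = 6.66e-05). Ltf, lactoferrin, was at 57.96 and 83.1 CPM in the MM401 libraries, 3143 and 4609 with EPZ and 3961 and 4869.7 with MI (log2 fold change 5.87, SE 0.31, adjusted p = 0.000108), and the DMSO libraries had 24.1 and 8.75 CPM. Fpr1, a receptor for bacterial formyl peptides, was at 0.538 and 0.207 CPM with MM401, 7.69 and 13.3 with EPZ and 22.5 and 41.2 with MI (log2 fold change 5.6, SE 0.54, adjusted p = 0.000507), with a log2 fold change of 6.43 without MM401 1. Chil1, a chitinase-like protein, was at 9.97 and 12.4 CPM with MM401, 344 and 766 with EPZ and 348 and 575 with MI (log2 fold change 5.5, SE 0.48, adjusted p = 0.000356).

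The sequences before the starts of these 4 genes, the members of the list with the largest rise, are shown because the list moved as a whole. They are the 250 bases before the RefSeq start, from RefSeq on build GRCm38.p6, which is not the mm9 build named in the submitters' processing notes. They are printed 5′ to 3′ on the strand of the gene, with capitals for matches on either strand to the core letters of 3 motifs, TTGCNNAA for C/EBP factors, GAGGAA for PU.1 and CACGTG for an E-box.
Retnlg (chr16:48872358-48872607, + strand): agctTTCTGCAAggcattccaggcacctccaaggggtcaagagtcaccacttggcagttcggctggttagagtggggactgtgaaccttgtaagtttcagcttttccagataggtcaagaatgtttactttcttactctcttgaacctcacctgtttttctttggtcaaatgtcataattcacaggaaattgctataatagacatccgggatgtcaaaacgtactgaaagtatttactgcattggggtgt
Ltf (chr9:111019042-111019291, + strand): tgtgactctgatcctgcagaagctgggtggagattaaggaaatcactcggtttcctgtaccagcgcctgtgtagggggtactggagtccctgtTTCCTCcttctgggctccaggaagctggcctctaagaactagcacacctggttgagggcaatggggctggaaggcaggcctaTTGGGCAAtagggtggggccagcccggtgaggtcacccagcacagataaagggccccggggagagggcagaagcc
Fpr1 (chr17:17883940-17884189, - strand): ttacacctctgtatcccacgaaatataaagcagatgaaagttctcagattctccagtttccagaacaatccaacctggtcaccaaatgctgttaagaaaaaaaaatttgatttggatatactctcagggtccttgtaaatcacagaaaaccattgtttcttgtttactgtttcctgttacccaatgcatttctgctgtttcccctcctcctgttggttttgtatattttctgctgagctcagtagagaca
Chil1 (chr1:134181906-134182155, + strand): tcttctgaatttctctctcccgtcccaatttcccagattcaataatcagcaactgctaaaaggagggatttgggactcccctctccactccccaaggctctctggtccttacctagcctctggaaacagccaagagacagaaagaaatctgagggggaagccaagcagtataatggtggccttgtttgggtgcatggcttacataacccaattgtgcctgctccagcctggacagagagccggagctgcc
The C/EBP letters occurred 1 time each in Retnlg and Ltf, with their first base at -246 and at -75 from the start, and the PU.1 letters 1 time in Ltf at -157. No letters of the 3 motifs were found in the windows of Fpr1 and Chil1, and none of the E-box in any of the 4. Of 32851 RefSeq windows of this length 9.56% held the C/EBP letters, 23.3% the PU.1 letters and 6.02% the E-box letters. A match to such letters does not by itself mark a bound site, and binding was not tested.

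Ngp and Ltf were 2 of the 5 called genes whose level rose by the most CPM. Ngp, the neutrophilic granule protein, was at 703 and 792 CPM in the MM401 libraries, 10555 and 11975 with EPZ and 9565 and 7834 with MI (log2 fold change 3.73, SE 0.20, adjusted p = 0.000107). Camp, the cathelicidin peptide precursor, was at 92.8 and 126 CPM with MM401, 2427 and 3337 with EPZ and 1336 and 1295 with MI, and Lcn2, lipocalin-2, at 85.8 and 103 CPM with MM401, 1353 and 2171 with EPZ and 1295 and 1597 with MI. The collagenase gene Mmp8 and the gelatinase gene Mmp9 were at 12.7 and 9.598 and at 14.5 and 17.7 CPM with MM401 and between 217 and 795 CPM in the EPZ and MI libraries. Cd177, a neutrophil surface protein, was at 2319 and 2297 CPM with EPZ and 2339.9 and 2289 with MI, nearly the same in all 4 libraries, against 248 and 319.9 with MM401. The summed level of the list was between 2751 and 3450 CPM in the MM401 libraries and between 29150 and 39620 in the EPZ and MI libraries. In the DMSO libraries Ngp was at 528 and 130.1 CPM, Camp at 50.3 and 38.5 and Lcn2 at 72.2 and 13.3, and in the iBET libraries Ngp was at 72.1 and 34.7.

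Primary granule genes, which are made earlier in the same lineage, went the other way. Of 15 members tested 10 fell (27.8% of all genes tested were lower) and 1 rose, with a median log2 fold change of -0.83. Mpo, myeloperoxidase, was at 1259 and 2018 CPM in the MM401 libraries, 164 and 351 with EPZ and 19.1 and 49.7 with MI (log2 fold change -4.12, SE 0.45, adjusted p = 0.000753). Its levels with MI were below those with EPZ, but the difference between the inhibitors did not pass the test (EPZ minus MI log2 fold change 2.9, adjusted p = 0.121). The serine protease genes Ctsg, Elane and Prtn3 were lower too: Ctsg was at 3014 and 3134 CPM with MM401, 306 and 435 with EPZ and 720.2 and 597 with MI (log2 fold change -2.64, SE 0.17, adjusted p = 0.000157). Elane, neutrophil elastase, was at 3596 and 3149 CPM with MM401, 1405 and 1166 with EPZ and 1016 and 615 with MI (log2 fold change -1.72, SE 0.21, adjusted p = 0.00108). Prtn3 fell by 1.63 on the log2 scale (SE 0.17), Cst7, a cystatin, by 1.69 (SE 0.093) and Ms4a3, a membrane protein of granulocyte progenitors, by 1.54 (SE 0.18). Calr, calreticulin, which is a chaperone of all cells, fell by 1.33. The member that rose was Fcnb, ficolin B, at 2.44 and 1.696 CPM with MM401, 127 and 126 with EPZ and 24.1 and 21.5 with MI (log2 fold change 4.69, SE 0.18, adjusted p = 6.62e-05). Serpinb1a (-0.065), Ctsc (0.80), Bpi (-0.53) and Nkg7 (-0.60) did not pass the test.

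**Figure D3:**
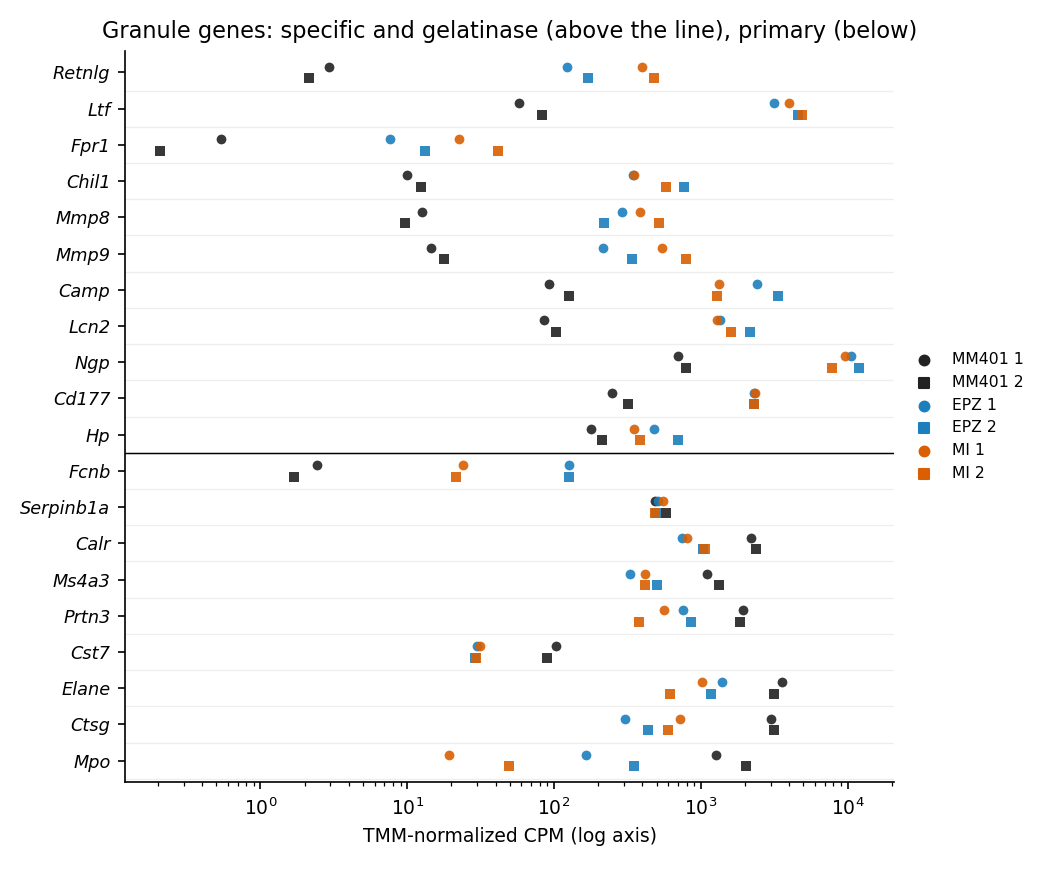
TMM-normalized CPM (log axis) in each of the 6 libraries for 11 specific and gelatinase granule genes (above the line) and 9 primary granule genes (below it), with the symbols of the plot of the largest differences. The EPZ and MI points lie to the right of the MM401 points in all 11 genes above the line and, apart from Fcnb and the overlapping Serpinb1a, to the left of them below it.

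Calcium-binding S100 proteins and annexins, which neutrophils and monocytes hold in large amounts, were higher for 10 of 12 members tested (83.3%, against 25.6% of all genes) and lower for none. The median log2 fold change was 1.84, and 6 members passed without MM401 2. S100a8 and S100a9, the subunits of calprotectin, had the largest rises in CPM of all genes called. S100a9 was at 1569 and 1976 CPM in the MM401 libraries, 17667 and 23666 with EPZ and 14420.4 and 14090.4 with MI (log2 fold change 3.28, SE 0.23, adjusted p = 0.000205), and S100a8 at 1847 and 2662 CPM with MM401, 12579 and 17757 with EPZ and 11604 and 12009.8 with MI (log2 fold change 2.57, SE 0.26, adjusted p = 0.00057). S100a6 was at 9.02 and 3.89 CPM with MM401, 172 and 159.5 with EPZ and 166 and 169 with MI (log2 fold change 4.69, SE 0.34, adjusted p = 0.000226), or 5.41 without MM401 1, whose level was the higher of the MM401 libraries. Anxa1, annexin A1, was at 41.2 and 57.7 CPM with MM401, 638 and 1188 with EPZ and 587 and 946 with MI (log2 fold change 4.08, SE 0.39, adjusted p = 0.000477). Anxa3 (-0.0074) and S100a1 (0.36) did not pass the test.

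The subunits of the phagocyte NADPH oxidase were higher for 6 of 7 members (25.6% of all genes were higher), and 7 of 7 had all EPZ and MI libraries above both MM401 libraries (31.7% of all genes). Cybb, the membrane subunit that carries the haem, was at 118 and 148 CPM in the MM401 libraries, 1389 and 1870.1 with EPZ and 1217 and 1680.2 with MI (log2 fold change 3.53, SE 0.24, adjusted p = 0.000176). The cytosolic subunits Ncf1 and Ncf4 differed less, by 0.86 and 0.92 on the log2 scale, as did Cyba (0.52), the partner of Cybb in the membrane, and Rac2 (0.73). Rac1, a GTPase of all cells, was at a log2 fold change of 0.17 (adjusted p = 0.119).

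Receptors for antibodies and complement were higher for 11 of 13 members (84.6%, against 25.6% of all genes) and lower for 1. Itgax, a subunit of complement receptor 4, had 10 reads with MM401 and was at 4.44 and 4.36 CPM with EPZ and 1.82 and 3.702 with MI (log2 fold change 4.04, SE 0.45, adjusted p = 0.000814). The receptors of the complement fragments C5a and C3a, C5ar1 and C3ar1, were at 12.9 and 17.003 and at 2.28 and 1.86 CPM with MM401, and at 187 and 272 and at 22.3 and 28.3 CPM with EPZ (log2 fold changes 3.89 and 3.74). Fcgr1, the high-affinity receptor for IgG, had a log2 fold change of 2.2 (adjusted p = 0.0132) and lost its call without MM401 1 (1.93) and without MM401 2 (2.5). The lower member was Ms4a2, the beta chain of the mast cell receptor for IgE (-1.11).

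Of 16 chemokines and chemokine receptors tested, 14 were higher by over 2-fold in the joint comparison (87.5%, against 14.4% of all genes) and none was lower. With EPZ alone against MM401 10 were higher and 2 lower, and with MI alone 13 were higher and none lower. Cxcr2, the receptor by which neutrophils leave the marrow, was among the genes with the smallest adjusted p and was at 7.03 and 7.78 CPM in the MM401 libraries, 137 and 126 with EPZ and 226 and 250.04 with MI (log2 fold change 4.58, SE 0.12, adjusted p = 3.97e-05). Ccl6 was at 99.3 and 59.4 CPM with MM401, 679 and 1082 with EPZ and 922 and 1639 with MI (log2 fold change 3.74, SE 0.40, adjusted p = 0.000696), and Ccl2 at 3.27 and 3.48 CPM with MM401, 20.3 and 47.1 with EPZ and 21.6 and 80.7 with MI (log2 fold change 3.62, SE 0.69, adjusted p = 0.0056), or 3.0 without MI 2. Cxcl2 had 16 reads with MM401 and 411 with EPZ and MI. Fewer members passed as higher without MM401 1 or without MM401 2, and in the latter fit some passed as lower. The median log2 fold change of the list, 2.55, was 2.86 without MM401 1 and 1.84 without MM401 2. Ccl9 (-0.20) and Ccr2 (-0.10) did not pass the test.

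Receptors of growth factors and cytokines were higher for 11 of 17 members (64.7%, against 25.6% of all genes) and lower for 1. Il1r2, the decoy receptor of interleukin-1, was at 57.2 and 39.6 CPM with MM401, 426 and 333 with EPZ and 359 and 242 with MI (log2 fold change 2.8, SE 0.26, adjusted p = 0.000419). Csf3r, the G-CSF receptor, was at 60.2 and 68.3 CPM with MM401, 218 and 278 with EPZ and 265 and 377 with MI (log2 fold change 2.14, SE 0.19, adjusted p = 0.000414), and Csf1r, the M-CSF receptor, at 18.6 and 17.3 CPM with MM401, 46.6 and 49.1 with EPZ and 34.7 and 63.3 with MI (log2 fold change 1.43, SE 0.25, adjusted p = 0.00391). Il10ra had a log2 fold change of 2.41. Csf2rb and Csf2rb2, whose sequences are alike and whose reads the counting may have split, were at 0.84 and 1.37. The interferon gamma receptor gene Ifngr1 was the member that fell, at 507 and 539 CPM with MM401, 219.8 and 231 with EPZ and 282 and 282 with MI (log2 fold change -1.05, SE 0.082, adjusted p = 0.000264). Il3ra, the receptor chain of the cytokine in the medium, was at 0.14 (adjusted p = 0.542).

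**Figure D4:**
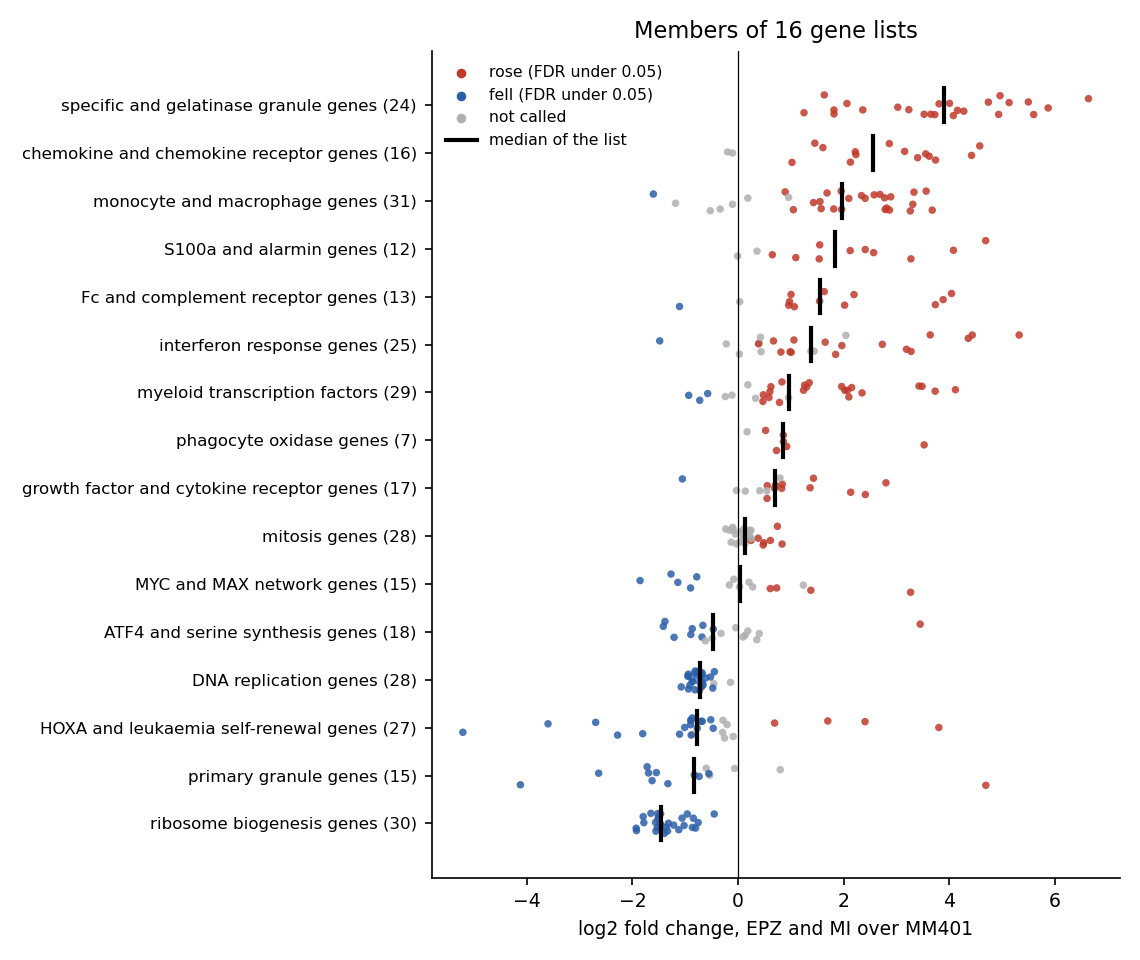
Log2 fold change of EPZ and MI over MM401 for each tested member of 16 gene lists (number tested in parentheses), in red where it rose, blue where it fell and grey where it did not pass an adjusted p of 0.05, with the list's median as a black bar. All 24 specific and gelatinase granule genes are red, and all 30 ribosome biogenesis genes are blue.

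Monocyte and macrophage genes were higher for 24 of 31 members tested, 23 of them by over 2-fold (14.4% of all genes), and lower for 1, with a median log2 fold change of 1.96. Without MM401 1 there were 15 such members and without MM401 2 there were 14. The scavenger receptor Msr1 was at 4.96 and 5.05 CPM in the MM401 libraries, 58.9 and 86.2 with EPZ and 26.02 and 70.6 with MI (log2 fold change 3.56, SE 0.47, adjusted p = 0.00146). The mannose receptor gene Mrc1 was at 12.2 and 14.1 CPM with MM401, 73.8 and 136 with EPZ and 70.3 and 236 with MI (log2 fold change 3.26, SE 0.57, adjusted p = 0.00422), and the transcription factor gene Maf at 1.86 and 1.41 CPM with MM401, 8.26 and 17.5 with EPZ and 10.9 and 31.4 with MI. Axl, a receptor tyrosine kinase by which phagocytes take up dying cells, was at 0.248 and 0.414 CPM with MM401, 6.88 and 4.85 with EPZ and 2.63 and 3.67 with MI (log2 fold change 3.68, SE 0.38, adjusted p = 0.000648), and Mertk, of the same family, had a log2 fold change of 2.82. Emr1, which encodes the macrophage antigen F4/80, was at 25.9 and 26.2 CPM with MM401, 87.1 and 85.99 with EPZ and 70.97 and 123 with MI (log2 fold change 1.81, SE 0.23, adjusted p = 0.00119). Cd36, a fatty acid and scavenger receptor, ranged from 0.29 and 1.61 CPM with MM401 to 1.29 and 7.05 with EPZ and 7.71 and 35.2 with MI. One of its EPZ libraries lay below the higher MM401 library, and its call (log2 fold change 3.31, adjusted p = 0.0418) was lost without MM401 1 (2.55), MM401 2 (5.01), EPZ 2 (2.46) or MI 2 (2.57).

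Replicate 2 was higher than replicate 1 for Mrc1, Maf and Cd36 with both EPZ and MI, and the summed level of the monocyte and macrophage list was 7321 CPM in EPZ 1, 11030 in EPZ 2, 6921 in MI 1 and 11680 in MI 2, against 3122 and 3133 in the MM401 libraries. Lyz2, lysozyme, was at 606 and 622 CPM with MM401, 3506 and 5144 with EPZ and 2566 and 3660.2 with MI (log2 fold change 2.58, SE 0.24, adjusted p = 0.000476), and reads of Lyz1 and Lyz2, which are alike, may have been split. Genes of the complement subcomponent C1q were low throughout, with 22 reads of C1qa in the MM401 libraries and 173 in the other 4. Apoe, apolipoprotein E, was the member that fell, at 13.1 and 15.7 CPM with MM401, 3.63 and 4.99 with EPZ and 5.25 and 5.17 with MI (log2 fold change -1.6, SE 0.18, adjusted p = 0.000847). Cd163 (-1.18), Ly86 (-0.52), F13a1 (-0.34) and Irf8 (0.19) did not pass the test.

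Some markers of other blood and marrow cells moved with the groups above. Of 9 megakaryocyte markers tested (12 in the list) 8 were higher (88.9%, against 25.6% of all genes). Summed levels of the list were 12.3 to 13.9 CPM with MM401 and 50.2 to 88.5 with EPZ and MI. Vwf was at 5.21 and 4.39 CPM with MM401, 24.02 and 37.7 with EPZ and 19.6 and 65.6 with MI and Pf4 at 0.538 and 0.372 CPM with MM401, 3.72 and 2.83 with EPZ and 3.01 and 1.05 with MI, while Gp6 had no read in the 6 libraries. Ppbp, also a member of the chemokine list, had 2 reads with MM401 and 95 with EPZ and MI, a ratio of 24.1 (95% interval 6.48 to 202 from counting error). Leaving out MM401 1 left 4 of these markers called, and leaving out MM401 2 left 2. The log2 fold change of Ppbp (4.42) was then 3.5 or 7.58 and that of Pf4 (2.48) 2.76 or 2.24, with no call, and Vwf (2.92) lost its call at 2.79 without MM401 2. Of 5 mast cell and basophil markers tested 4 were lower (80%, against 27.8% of all genes) and Kit was higher (0.69). The summed level of the list was 97.1 to 125 CPM with MM401 and 102.5 to 163 with EPZ and MI, ranges that overlap. Gata2, among the lower, was at 2.15 and 1.78 CPM with MM401, 0.143 and 0.18 with EPZ and 0.169 and 0.14 with MI (log2 fold change -3.6, SE 0.32, adjusted p = 0.000389). Hdc (-0.73) lost its call with all 10 libraries, with EPZ and MI fitted as a single group and without MM401 2 (-0.56). Fcer1a, Prss34, Tpsab1, Tpsb2 and Cma1 had no read.

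Of the 14 erythroid markers 4 were tested, of which Tfrc, which all dividing cells use to take up iron, fell and Car2 rose. That was 25% each, near the 27.8% of all genes that were lower and the 25.6% that were higher. Summed levels were 716 to 769 CPM with MM401 and 294 to 570.1 with EPZ and MI, and both haemoglobin alpha and both haemoglobin beta genes of the list had no read. Of 4 B cell markers tested 2 were higher (50%, against 25.6% of all genes), led by Cd22 at 0.331 and 0.414 CPM with MM401, 3.63 and 6.38 with EPZ and 3.18 and 7.86 with MI, while Ms4a1, Pax5 and Ebf1 had no read. Of 4 T and NK cell markers tested Cd3d was higher, with 6 reads in MM401 and 131 in EPZ and MI, and Lck was lower (25% each, near the shares of all genes). Cd3e, Cd8a and Ncr1 had no read. Of 3 eosinophil markers tested 2 were higher (Siglec5 and Ccr3, 66.7% against 25.6% of all genes). Of 4 dendritic cell markers Itgax and Clec9a were higher (50%, against 25.6% of all genes) and Tcf4 lower (25%, near the 27.8% of all genes). Summed levels of the dendritic cell list were lower, at 52.96 to 69.75 CPM with EPZ and MI against 82.7 to 90.7 with MM401. Its median log2 fold change of 0.97 changed sign between settings. It was -0.17 with a stricter filter on low counts and -0.73 with all 10 libraries in the fit. Of 12 stromal and endothelial markers only 2 were tested, and both were higher (Col1a1 and Kdr, against 25.6% of all genes). Col1a1 was at 0.703 and 0.745 CPM with MM401, 6.06 and 18.1 with EPZ and 2.92 and 10.8 with MI. Ccr3, Clec9a, Car2, Lck and Col1a1 each lost their call without MM401 1 and without MM401 2, at log2 fold changes of 2.76 and 1.84 for Ccr3, 1.51 and 3.39 for Clec9a, 0.96 and 1.26 for Car2, -0.82 and -1.1 for Lck and 3.6 and 3.68 for Col1a1, and Cd3d lost its call without MM401 2 (2.41). Summed levels of the B cell, T and NK cell, eosinophil and stromal lists reached at most 35.6 CPM in any of the 6 libraries. Their part in the differences of the myeloid lists was not tested.

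Transcription factors of the myeloid lineage were higher for 21 of 29 members tested (72.4%, against 25.6% of all genes) and lower for 3. Egr3 was at 0.621 and 0.538 CPM in the MM401 libraries, 8.88 and 4.36 with EPZ and 11.7 and 19.4 with MI (log2 fold change 4.12, SE 0.46, adjusted p = 0.000803), and Egr2 at 1.45 and 0.827 CPM with MM401, 16.4 and 4.76 with EPZ and 11.6 and 17.01 with MI (log2 fold change 3.43, SE 0.62, adjusted p = 0.00456). Id2, an inhibitor of basic helix-loop-helix factors, was at 15.3 and 11.5 CPM with MM401, 218 and 229.99 with EPZ and 130.3 and 153 with MI (log2 fold change 3.73, SE 0.16, adjusted p = 8.73e-05). Irf4 was at 0.786 and 0.372 CPM with MM401, 7.78 and 3.19 with EPZ and 8.73 and 6.92 with MI (log2 fold change 3.49, SE 0.53, adjusted p = 0.00238), or 4.11 without MM401 1. The AP-1 genes Fos and Jun had log2 fold changes of 2.35 (SE 0.30) and 2.15 (SE 0.25), and Klf4, a factor of monocytes, one of 2.1 (SE 0.31).

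Cebpe, which is needed for specific granules, was at 129 and 150.3 CPM in the MM401 libraries, 310.04 and 440.4 with EPZ and 302 and 295 with MI (log2 fold change 1.26, SE 0.16, adjusted p = 0.00137), and Cebpb had a log2 fold change of 0.83. Cebpa, which acts at the progenitor stage, was at 121 and 104 CPM with MM401, 125 and 92.9 with EPZ and 96.6 and 69.9 with MI and did not pass the test (log2 fold change -0.24, adjusted p = 0.29). Spi1, which encodes PU.1, was at 251 and 293 CPM with MM401, 393 and 488 with EPZ and 381 and 418 with MI (log2 fold change 0.62, SE 0.13, adjusted p = 0.00835), and Runx1 at 83.7 and 95.9 CPM with MM401, 177 and 137 with EPZ and 123 and 116 with MI (log2 fold change 0.61, SE 0.13, adjusted p = 0.00938). Neither kept its call without MM401 1, at 0.51 for Spi1 and 0.50 for Runx1. The members that fell were Elf1 (-0.93), Gfi1 (-0.72), a transcriptional repressor that acts within the granulocyte lineage, and Etv6 (-0.57). Fli1 was at -0.11 (adjusted p = 0.485).

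Genes of the HOXA cluster and of leukaemic self-renewal were lower for 17 of 27 members tested (27.8% of all genes) and higher for 4, with a median log2 fold change of -0.77. The 17 became 8 without MM401 2 and 11 when EPZ and MI were fitted as a single group, and the 4 became 2 without MM401 1. Of the members that fell, Meis1 and Gata2 are given above, and Cd34, a progenitor surface marker with few reads, was at 1.696 and 2.32 CPM with MM401, 0.0955 and 0.539 with EPZ and 0.381 and 0.21 with MI (log2 fold change -2.69, SE 0.53, adjusted p = 0.00649), or -3.55 without EPZ 2, with its call lost without MM401 2 (-2.46). Cdk6, a kinase that drives entry into the cell cycle, was at 321 and 345 CPM in the MM401 libraries, 63.6 and 61.6 with EPZ and 76.4 and 73.8 with MI (log2 fold change -2.28, SE 0.076, adjusted p = 5.89e-05). Myb was at 821 and 883 CPM with MM401, 266 and 262 with EPZ and 235 and 217 with MI (log2 fold change -1.8, SE 0.088, adjusted p = 0.000101). Mef2c (-0.89), Runx2 (-0.86), Zeb2 (-0.77), Pbx3 (-0.70) and Bcl2 (-1.01) were lower too. With EPZ alone against MM401, 17 members of the list were lower and 4 higher, at a median log2 fold change of -0.99. With MI alone 11 were lower and 2 higher, at a median of -0.22. Flt3, for which a minimum of reads was not reached, had 12 reads with MM401 and 0 with EPZ and MI.

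The 4 members that were higher were Bcl11a, Hlf, Erg and Kit. Erg, an ETS factor of stem cells and megakaryocytes, was at 7.74 and 6.29 CPM with MM401, 34.5 and 29.7 with EPZ and 16.7 and 15.7 with MI (log2 fold change 1.7, SE 0.15, adjusted p = 0.000388), and Hlf at 0.331 and 0.414 CPM with MM401, 2.58 and 3.37 with EPZ and 1.31 and 1.36 with MI (log2 fold change 2.41, SE 0.32, adjusted p = 0.00153). Kit, the receptor of stem cell factor, was at 50.2 and 71.7 CPM with MM401, 137 and 106 with EPZ and 80.7 and 79.3 with MI (log2 fold change 0.69, SE 0.17, adjusted p = 0.0165). Bcl11a had 1 read with MM401 and 61 with EPZ and MI, a ratio of 30.9 (95% interval 5.34 to 1240 from counting error). Its EPZ libraries were at 1.19 and 1.39 CPM and its MI libraries at 0.0847 and 0.105, and the joint call (log2 fold change 3.8) was lost without MM401 1 (2.95).

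Within the HOXA cluster the joint value of EPZ and MI averaged unlike levels. Of 10 Hoxa genes tested, Hoxa4, Hoxa5, Hoxa6, Hoxa10 and Hoxa11 fell in the joint comparison (27.8% of all genes were lower). Among them, only Hoxa11 had all 4 EPZ and MI libraries below both MM401 libraries. Hoxa11 was at 221 and 221 CPM in the MM401 libraries, 55.7 and 55.3 with EPZ and 199.96 and 179.6 with MI, so that the EPZ libraries lay far below the other 4 and the MI libraries just below MM401. Its log2 fold change was -1.99 for EPZ over MM401 (adjusted p = 0.000147) and -0.22 for MI over MM401 (adjusted p = 0.102), and EPZ and MI differed by -1.77 (SE 0.10, adjusted p = 0.00707). Both values against MM401 share its 2 libraries.

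Hoxa10 was at 326 and 321 CPM with MM401, 127 and 134 with EPZ and 352 and 277 with MI, with -1.31 for EPZ and -0.042 for MI over MM401 (EPZ minus MI -1.27, adjusted p = 0.0351). For Hoxa5 and Hoxa6 both EPZ libraries likewise lay below the other 4, with EPZ minus MI differences of -1.62 (adjusted p = 0.0367) and -1.49 (adjusted p = 0.0476). Hoxa9, the most studied of them in leukaemia, was at 368 and 390.5 CPM in the MM401 libraries, 273 and 275 with EPZ and 392 and 347 with MI. Its joint log2 fold change of -0.25 (SE 0.092) did not pass the test (adjusted p = 0.0561), though it passed in 3 of the 15 other settings. The value was -0.47 for EPZ (adjusted p = 0.0137) and -0.038 for MI (adjusted p = 0.789). Hoxa7 was at -0.29 jointly (adjusted p = 0.0759) and passed in 2 of the 15 other settings. Hoxa6 (-0.47 jointly) lost its call in 5 of the 6 fits that left out a library, all but the fit without MI 1, with values from -0.62 to -0.31 in those 5, and Hoxa10 and Hoxa11 lost theirs when EPZ and MI were fitted as a single group or with all 10 libraries. Genes overlap on both strands in this cluster, and whether reads were counted by strand is not given in the sources used here.

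**Figure D5:**
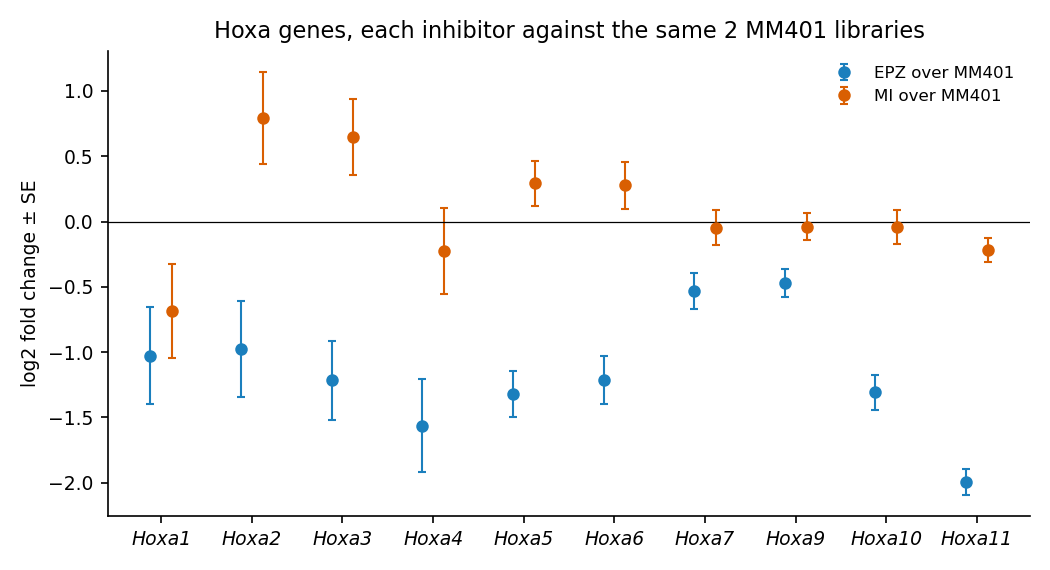
Log2 fold change of 10 Hoxa genes for EPZ over MM401 (blue) and MI over MM401 (orange), with bars of 1 standard error, from the same fit and the same 2 MM401 libraries. All 10 EPZ values are below 0, from -0.47 for Hoxa9 to -1.99 for Hoxa11, while the MI values lie between -0.68 and 0.80.

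Genes for making ribosomes were lower without exception. All 30 members of the list were tested and 30 fell (27.8% of all genes were lower), 24 of them by over 2-fold (8.05% of all genes), with a median log2 fold change of -1.46, a range from -1.93 to -0.45 and summed levels of 7238 to 7890 CPM with MM401 and 2617 to 3408 with EPZ and MI. Ncl, nucleolin, was at 1641 and 1876 CPM in the MM401 libraries, 703 and 811 with EPZ and 541 and 641 with MI (log2 fold change -1.39, SE 0.13, adjusted p = 0.000413). Npm1, nucleophosmin, was at 422 and 446 CPM with MM401, 155 and 205 with EPZ and 116 and 126 with MI (log2 fold change -1.55, SE 0.12, adjusted p = 0.000287). The processing factors Utp20 and Wdr12 had log2 fold changes of -1.93 (SE 0.16) and -1.92 (SE 0.19), and the nucleolar GTPase gene Gnl3 one of -1.79. Polr1b, a subunit of RNA polymerase I, was at 93.5 and 93.8 CPM with MM401, 37.3 and 32.3 with EPZ and 30.97 and 34.96 with MI (log2 fold change -1.47, SE 0.10, adjusted p = 0.000172). Dkc1, which modifies ribosomal RNA and has a role in telomerase, had the smallest difference (log2 fold change -0.45, SE 0.091, adjusted p = 0.00723). At least 29 of the 30 fell in each of the 15 other settings tried.

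Of the MYC network, 5 of 15 members fell (33.3%, against 27.8% of all genes) and 4 rose (26.7%, against 25.6%), shares near those of all genes. Myc was at 354 and 290.01 CPM in the MM401 libraries, 250.5 and 139 with EPZ and 178 and 129 with MI (log2 fold change -0.90, SE 0.25, adjusted p = 0.0235), with no call without MM401 1 (-0.75) or without MM401 2 (-1.04). The MYC targets Cad, which starts pyrimidine synthesis, and Odc1, which starts polyamine synthesis, had log2 fold changes of -1.85 (SE 0.076) and -1.27 (SE 0.13). The members that rose were the MAX partners that oppose MYC: Mxd1, at 74.1 and 58.2 CPM with MM401, 684 and 683 with EPZ and 573 and 618 with MI (log2 fold change 3.27, SE 0.14, adjusted p = 8.73e-05), Mxd3 (1.38), Mxi1 (0.73) and Mxd4 (0.61). Max itself (0.21) did not pass the test. The median of the list, 0.032, was -0.083 with scaling by total counts.

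DNA replication genes fell for 26 of 28 members (92.9%, against 27.8% of all genes) and rose for none, by less than the ribosome genes. The median log2 fold change was -0.73, and only Orc1, at 24.6 and 30.5 CPM with MM401, 13.04 and 13.9 with EPZ and 11.8 and 13.6 with MI (log2 fold change -1.07, SE 0.14, adjusted p = 0.00124), passed 2-fold. The subunits of the replicative helicase, Mcm2 to Mcm7, lay between -0.94 and -0.70. Mcm3 was at 453 and 480.2 CPM in the MM401 libraries, 262 and 271 with EPZ and 217 and 227 with MI (log2 fold change -0.94, SE 0.081, adjusted p = 0.000359). Pcna (-0.46, adjusted p = 0.06) and Tk1 (-0.14, adjusted p = 0.304) did not pass the test.

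Of 28 mitosis genes tested 7 were higher, or 25%, near the 25.6% of all genes, and none was lower, with a median of 0.13. Nusap1, a spindle protein, was at 69.4 and 72.5 CPM with MM401, 139 and 157 with EPZ and 113 and 104 with MI (log2 fold change 0.84, SE 0.10, adjusted p = 0.000841), and Kif23, a motor of cell division, at 89.8 and 98.05 CPM with MM401, 183 and 155 with EPZ and 144 and 149 with MI (log2 fold change 0.75, SE 0.10, adjusted p = 0.00164). Mki67, the proliferation antigen, was at 943 and 992 CPM with MM401, 1516 and 1370.3 with EPZ and 1114 and 1089.8 with MI (log2 fold change 0.38, SE 0.11, adjusted p = 0.0233). The count was 3 without MM401 1, 2 without MM401 2 and 4 with scaling by total counts, which put the median at 0.014 and called 1 member lower. Cdk1 (-0.029), Plk1 (0.086), Top2a (0.10), Ccna2 (0.056) and Ccnb1 (0.11) did not pass the test.

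Of 24 cell cycle inhibitors, G1 cyclins and kinases and p53 target genes, 9 were higher (37.5%, against 25.6% of all genes) and 6 lower (25%, near the 27.8% of all genes). Cdkn2c, which encodes the inhibitor p18, was the lowest, at 72.6 and 90.8 CPM in the MM401 libraries, 12.6 and 19.005 with EPZ and 6.102 and 8.98 with MI (log2 fold change -2.9, SE 0.22, adjusted p = 0.000233). Cdk4, a kinase related to Cdk6, was at 368 and 369 CPM with MM401, 142 and 166 with EPZ and 151 and 162 with MI (log2 fold change -1.25, SE 0.092, adjusted p = 0.000226). The inhibitors Cdkn1b (p27) and Cdkn2d (p19) were higher, with log2 fold changes of 1.23 (SE 0.21) and 1.64 (SE 0.21). Cdkn1a, which encodes p21, was at 188 and 166 CPM with MM401, 179.8 and 94.8 with EPZ and 219 and 137 with MI and did not pass the test (log2 fold change -0.18, adjusted p = 0.622). Trp53 itself was lower (log2 fold change -1.12, SE 0.10, adjusted p = 0.000342), and of its targets Trp53inp1 (2.41) and Btg2 (2.06) were higher, Bax (-0.53) and Sesn1 (-0.45) lower.

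Interferon response genes were higher for 16 of 25 members tested (64%, against 25.6% of all genes) and lower for 1, with a median of 1.38. The count was 8 without MM401 2. Rsad2, an antiviral enzyme, was at 0.496 and 0.331 CPM in the MM401 libraries, 7.11 and 3.73 with EPZ and 22.3 and 5.13 with MI (log2 fold change 4.36, SE 0.81, adjusted p = 0.00528). Oasl2 was at 0.124 and 0.124 CPM with MM401, 3.53 and 2.07 with EPZ and 16.5 and 2.72 with MI and Ifit1 at 0.124 and 0.124 CPM with MM401, 1.62 and 1.57 with EPZ and 8.22 and 1.61 with MI, so that MI 1 stood above the other EPZ and MI libraries for these 3 genes. Oasl2 and Ifit1 lost their calls without MM401 1 (5.32 and 4.43) and without MM401 2 (5.32 and 4.43), and Rsad2 without MM401 2 (4.1). Without MI 1 the log2 fold changes of Oasl2, Ifit1 and Rsad2 were 4.45, 3.67 and 3.69 in place of 5.33, 4.44 and 4.36. Oas3 was at 5.999 and 3.103 CPM with MM401, 57.97 and 35.99 with EPZ and 95.8 and 41.8 with MI (log2 fold change 3.64, SE 0.50, adjusted p = 0.00164), and Irf7, which drives the interferon alpha genes, at 2.94 and 2.19 CPM with MM401, 22.6 and 12.7 with EPZ and 44.5 and 18.1 with MI (log2 fold change 3.19, SE 0.49, adjusted p = 0.00253). Reads of the Oas genes, which are a multigene family, may have been split between its members. The guanylate-binding protein gene Gbp3 was the member that fell (log2 fold change -1.48, SE 0.15, adjusted p = 0.000606), and Bst2 (-0.22), Irgm1 (0.027) and Usp18 (2.04) did not pass the test.

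The genes of the proteins that the inhibitors act on, and of the MLL complexes, differed mostly by less than 2-fold. Of 27 tested 5 were higher (18.5%, against 25.6% of all genes) and 8 lower (29.6%, near the 27.8% of all genes), and only Mllt6 (1.12), which encodes AF17, passed 2-fold. Dot1l, the target of EPZ, was at 132 and 130.1 CPM in the MM401 libraries, 101 and 81.2 with EPZ and 102 and 96.7 with MI (log2 fold change -0.47, SE 0.11, adjusted p = 0.0114), a call lost without MM401 1 (-0.46) and without MM401 2 (-0.48). Men1, which encodes MENIN, was at 86.8 and 62.5 CPM with MM401, 75.7 and 57.1 with EPZ and 76.2 and 49.3 with MI (log2 fold change -0.21, adjusted p = 0.466). Wdr5 was at 181 and 199 CPM with MM401, 164 and 174 with EPZ and 141 and 171 with MI (log2 fold change -0.22, adjusted p = 0.121), and Kmt2a, which encodes MLL1 and on which reads of the fusion transcript may also have been counted, at 263 and 283 CPM with MM401, 348 and 283 with EPZ and 302 and 340.2 with MI (log2 fold change 0.22, adjusted p = 0.162). The core subunits Dpy30 (-0.88) and Ash2l (-0.72) were lower, as were Mllt1 (-0.88), which encodes ENL, and Ezh2 (-0.92), the methyltransferase of the Polycomb complex. Mllt3, which encodes AF9, was at 0.22 (adjusted p = 0.183). Of the 15 other settings, Wdr5 passed the test in 2 and Men1 in 1. No member was called higher without MM401 1, nor without MM401 2.

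Joint targets of MLL1 and MLL-AF9 are genes that the study lists as bound by both proteins in such cells, a list made from binding and not from these libraries. Of 1368 names 1347 were among the genes counted and 967 were tested. Of these, 292 were higher (30.2%, against 25.6% of all genes) and 256 lower (26.5%, against 27.8%). Over 2-fold, 161 were higher (16.6%, against 14.4%) and 89 lower (9.2%, against 8.05%). The shares were thus close to those of all genes, and the median log2 fold change was 0.032, or -0.083 with scaling by total counts, against -0.0054 and -0.121 over all genes. Both counts were lower without an MM401 library, with 174 higher and 183 lower without MM401 1 and 174 higher and 158 lower without MM401 2.

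Among these targets, Kcnn3 had the largest rise and Meis1, Ano4, Hpgd and Bhlha15 the largest falls, as given above. Erc2, a protein of nerve endings, was at 0.745 and 0.786 CPM in the MM401 libraries, 22.7 and 33.8 with EPZ and 55.7 and 80.4 with MI (log2 fold change 5.83, SE 0.32, adjusted p = 0.000115). Fam46c was at 0.331 and 0.29 CPM with MM401, 13.1 and 13.1 with EPZ and 7.63 and 8.35 with MI (log2 fold change 5.02, SE 0.23, adjusted p = 9.19e-05). Inhba, the beta A chain of inhibin and activin, was at 1.08 and 1.37 CPM with MM401, 40.1 and 34.5 with EPZ and 40.4 and 40.3 with MI (log2 fold change 4.98, SE 0.17, adjusted p = 5.89e-05), with its 4 EPZ and MI libraries close together. Car12, a carbonic anhydrase, was at 29.5 and 25.2 CPM with MM401, 4.202 and 3.91 with EPZ and 3.39 and 3.42 with MI (log2 fold change -2.88, SE 0.13, adjusted p = 9.98e-05).

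Whether EPZ and MI could be read as a single group was asked gene by gene in the same fit. Against the same MM401 libraries EPZ called 5850 genes (45.9%) and MI 6192 (48.5%), while EPZ against MI called 41 (0.321%), of which 38 were also called in the joint comparison, and 1588 genes had an unadjusted p under 0.05. This count rested on single libraries. It was 0 in edgeR without EPZ 1, without EPZ 2 or without MI 1 (2172, 1197 and 1374 genes at an unadjusted p under 0.05), 16 without MI 2, 4 without MM401 1 and 3 without MM401 2, and DESeq2 called 384 in the 6 libraries. With the replicate number added to the model as a block the count was 1127, but the labels tie these numbers to nothing. A gene that did not pass the test of EPZ against MI is not shown to respond alike to both inhibitors.

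Of the named genes with the smallest adjusted p between EPZ and MI, Irx5, an Iroquois homeobox gene, was at 23.9 and 27.4 CPM in the MM401 libraries, 3.72 and 4.54 with EPZ and 33.2 and 36.2 with MI. EPZ was far below MM401 (-2.63, adjusted p = 0.000232), whereas MI lay above it by 0.44 (adjusted p = 0.0504), and the joint log2 fold change of -1.1 averaged the pair (EPZ minus MI -3.07, SE 0.17, adjusted p = 0.00707). Ppm1e, a protein phosphatase, showed the reverse at 30.99 and 31.4 CPM with MM401, 31.99 and 29.3 with EPZ and 7.03 and 7.75 with MI, with -0.026 for EPZ and -2.08 for MI (EPZ minus MI 2.05, SE 0.13, adjusted p = 0.00847). Fcnb and Abcc3 rose with both and differed in size. Fcnb was higher with EPZ (5.93 against 3.46, adjusted p of the difference = 0.00847), and Abcc3, a multidrug transporter, at 2.32 and 2.44 CPM with MM401, 33.9 and 26.1 with EPZ and 156 and 138 with MI, was higher with MI (3.65 against 5.95, adjusted p of the difference = 0.00929). Retnlg and Cxcr2, which also rose with both, were higher with MI than with EPZ, with EPZ minus MI values of -1.59 for Retnlg (adjusted p = 0.0476) and -0.86 for Cxcr2 (adjusted p = 0.0476).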

How the data were processed

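RNA from 10 samples was sequenced after TruSeq library preparation, and the authors deposited 1 table of counts, the whole reads per gene and library with no normalization. The submitters' processing notes name TopHat2, Subread, DESeq and the mouse build mm9, without versions, and how reads on overlapping genes, near-identical genes or the opposite strand were counted is not given in the sources used here. Samples were assigned to groups by their labels. Total counts of the 6 libraries compared lay between 21249483 and 29473127, and a level of a few reads is imprecise whatever the depth.

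From these counts, genes were filtered with filterByExpr and scaled with TMM in edgeR 4.0.16 (R 4.3.3, limma 3.58.1). A quasi-likelihood model with 1 coefficient per inhibitor was fitted to the 6 libraries, the mean of the EPZ and MI coefficients was contrasted with that of MM401, and p-values were adjusted by Benjamini-Hochberg over all 12756 genes, with a threshold of 0.05. EPZ against MM401, MI against MM401 and EPZ against MI came from the same fit. Standard errors were taken from the fold change and the F statistic. Intervals of ratios of low counts cover counting error only and are at 95%. The fit was also run on simulated counts in which few genes changed, EPZ and MI changed alike and libraries were independent. These settings differ from the data, so that run does not show how the fit behaves on them. Alternatives were DESeq2 1.42.0, other scalings, filters, libraries and designs, and leaving out each library.

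Genes were named by rule: those the paper names, the 10 largest rises and falls with at least 5 CPM, the 5 largest gains and losses in CPM, up to 4 called members of each list by size of change, 5 genes that differed most between EPZ and MI, and 5 joint targets in each direction. Other list members were chosen after their values were seen, as were the members of lists named for not passing the test. The members of the comparison and the 32 gene lists were chosen with earlier results of these data known. Some genes that the rule or the lists select are not reported here.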

Additional observations from a re-analysis of the deposited data

Results flagged for a closer look

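For 10 of the genes named by rule, the response to EPZ and the response to MI, each against the same MM401 libraries, differed by the test of EPZ against MI in edgeR. Differences are given as EPZ minus MI on the log2 scale. Lower with EPZ were Irx5 (-3.07, adjusted p = 0.00707), Abcc3 (-2.29, adjusted p = 0.00929), Hoxa11 (-1.77, adjusted p = 0.00707), Hoxa6 (-1.49, adjusted p = 0.0476), Hoxa10 (-1.27, adjusted p = 0.0351), Retnlg (-1.59, adjusted p = 0.0476) and Cxcr2 (-0.856, adjusted p = 0.0476). Higher with EPZ were Fcnb (2.47, adjusted p = 0.00847), Ppm1e (2.05, adjusted p = 0.00847) and Tfrc, the transferrin receptor gene (0.964, adjusted p = 0.0389). Tfrc was at 702 and 752 CPM with MM401, 545 and 552 with EPZ and 295 and 268 with MI, and its log2 fold change over MM401 was -0.41 with EPZ (adjusted p = 0.0247) and -1.37 with MI (adjusted p = 0.000446). Hoxa5, described above but outside that rule, was lower with EPZ too (-1.62, adjusted p = 0.0367). In each of the 10 genes both EPZ libraries lay on one side of both MI libraries. No gene passed this test in edgeR without EPZ 1, without EPZ 2 or without MI 1, where 2172, 1197 and 1374 genes had an unadjusted p under 0.05. The cause of these differences was not tested.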

How the results depend on the processing

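Of 149 named genes called in the joint comparison, 110 kept their call in each of 15 other settings and none of the 149 changed direction. The joint count lay between 3770 and 6612 when 1 library was left out, with the 3770 without MM401 2 and 4088 without MM401 1, the higher genes between 1866 and 3194 and the lower between 1904 and 3483. The counts were 2968 to 5782 for EPZ and 3256 to 6427 for MI against MM401 and 0 to 16 for EPZ against MI. For EPZ against MI the 41 became 384 with the DESeq2 Wald test, 73 with no filter, 126 in 8 libraries, 2 in all 10 and 1127 with the replicate block. Same-numbered libraries deviated together (r of 0.679 for EPZ with MI, 0.475 for EPZ with MM401 and 0.423 for MI with MM401), but only 2 numbers are shared and the labels tie them to nothing, and with the replicate block the joint count was 8636. Of 990 list counts 109 moved by over 1.5 times, 49 of them without an MM401 library, which leaves fewer samples. Causes of the other moves were not tested. With 2 libraries per inhibitor and few reads, small differences of low genes were not detectable.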

Other observations

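Genes of the BCL2 family were higher in EPZ and MI for 8 of 16 members tested (50%, against 25.6% of all genes) and lower for 3 (18.8%, against 27.8%). The antiapoptotic gene Mcl1 rose by 1.05 on the log2 scale, and the BH3-only genes Bmf and Bcl2l11 (BIM) by 1.85 and 1.12. Bcl2 was at 14.9 and 14.1 CPM with MM401, 7.02 and 8.27 with EPZ and 4.62 and 8.98 with MI (log2 fold change -1.01, SE 0.26, adjusted p = 0.0181), and Bid (-0.64) and Bax (-0.53) were lower too. The count of lower members was 1 without MM401 1 and 1 without MM401 2. The near-identical Bcl2a1 copies, between which reads may have been split, had log2 fold changes of 1.1, 1.71 and 2.24. Lysosomal genes were higher for 11 of 28 members (39.3%), led by the cathepsins Ctss (2.41) and Ctsh (2.18), and lower for 5 (17.9%), among them Gusb (-0.84). There were 5 higher without MM401 1 and 5 without MM401 2. Of 23 integrin and adhesion genes 10 were higher (43.5%) and 7 lower (30.4%, near the share of all genes). The tetraspanin gene Cd9 (3.52) and Itgam (1.63), a subunit of complement receptor 3, were higher, while Pecam1 (-1.47) and Icam2 (-1.25) were lower. Of 16 antigen presentation genes 6 were higher (37.5%) and 3 lower (18.8%). Fewer passed in each direction without MM401 1 or without MM401 2. The median log2 fold change of the list, 0.45, was 0.58 without MM401 1 and 0.46 without MM401 2. The costimulatory ligand gene Cd86 was at 1.32 and 0.786 CPM with MM401, 5.54 and 9.57 with EPZ and 4.75 and 9.19 with MI (log2 fold change 2.78, SE 0.45, adjusted p = 0.00319).

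Of 18 genes of the ATF4 and serine list 8 fell (44.4%, against 27.8% of all genes), led by Shmt2 (-1.41), Phgdh (-1.38) and Psat1 (-1.21), and Atf3 rose (3.45). The count of falls was 3 without MM401 1 and 5 without MM401 2. Of 29 genes for sterols and fatty acids 4 were higher (13.8%, against 25.6% of all genes) and 7 lower (24.1%, against 27.8%). Elovl6 (-1.5) and Acaca (-0.90), which act in fatty acid synthesis, were among the lower, and Mvd (0.79) and Fdps (0.58), of the mevalonate pathway, among the higher, of which none was called without MM401 2. Of 18 glycolysis genes the glucose transporter gene Slc2a3 rose, at 88.1 and 79.6 CPM with MM401, 829 and 599 with EPZ and 853 and 779 with MI (log2 fold change 3.19, SE 0.18, adjusted p = 0.000117), and the lactate transporter gene Slc16a1 fell (log2 fold change -1.33, SE 0.13, adjusted p = 0.000524). The other 16 did not pass the test, Slc16a3 at 0.042 among them. Of the genes that lost the most CPM, Hsp90ab1, a chaperone, was at 2742 and 2567 CPM with MM401, 1349 and 909.7 with EPZ and 1331 and 1218 with MI (log2 fold change -1.15, SE 0.17, adjusted p = 0.00222).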
